A study of Mus musculus with 6 samples.

Results

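Expression of 9 genes of selectin binding, adhesion and homing was examined in mouse haematopoietic stem and progenitor cells that carry cKit and Sca1 and lack lineage markers (KSL cells). The genes were Selplg, Cd44, Cd47, Cd9, Vcam1, Pecam1, Icam1, Robo4 and Podxl, 9 of the 19938 genes that the platform annotation named by exactly 1 symbol. Each gene was read from the probe set with the highest mean over the arrays, and all 9 were measured. The study compared 3 samples labelled Runx1;Runx3 double knockout (DKO; Runx1fl/fl;Runx3fl/fl;Mx1-Cre+) with 3 samples labelled wild type (WT), which were littermates of genotype Runx1fl/fl;Runx3fl/fl;Mx1-Cre-. The strain background was C57BL/6, with at least 3 generations of backcrossing. Both groups thus carried the floxed alleles, and the groups differ in the Mx1-Cre transgene as well as in the deletion that it drives. Mx1-Cre is a recombinase gene under a promoter that answers to interferon, and pIpC, a synthetic double-stranded RNA, switches it on. Mice were injected with 600 µg of pIpC on 7 alternate days from an age of 4 weeks, in a protocol text that is the same for both groups. The sample descriptions also call the cells untreated, and the sources used here do not give the time from injection to collection. The design text describes WT pools of 3 mice each, but it counts fewer mice in total than such pools need. Pooling of the DKO samples is not stated, so the number of mice behind each sample is uncertain. The labels call the 3 samples of a group biological replicates. RNA was hybridised to Affymetrix Mouse Gene 1.0 ST arrays, and every value below is a log2 signal or a difference of log2 signals.

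Blood stem cells reach the marrow from the circulation in steps. Selectins on the vessel wall catch sugar-modified proteins such as PSGL-1 and CD44 on the rolling cell, integrins then bind the immunoglobulin proteins VCAM-1 and ICAM-1 firmly, and PECAM-1 acts at endothelial junctions during passage. CD47 marks a cell as self to the receptor SIRP-alpha of phagocytes, CD9 organises integrins and other partners in membrane domains, ROBO4 takes part in the anchoring of mouse stem cells to the marrow, and podocalyxin is a sialomucin related to CD34.

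The arrays of a group resembled each other more than those of the other group, with Pearson correlations over all genes of 0.993 to 0.995 within DKO, 0.989 to 0.991 within WT and 0.976 to 0.98 between the groups. Runx1 signal was 9.22, 9.37 and 9.28 in the DKO samples, against 8.49, 8.53 and 8.38 in the WT samples, and thus higher in the samples labelled as knockout (difference 0.82, limma adjusted p = 0.000427). Runx3 signal was 7.40, 7.40 and 7.34 in DKO, against 7.53, 7.59 and 7.47 in WT (difference -0.15, limma adjusted p = 0.253), lower in every DKO sample but not past the threshold. With a trend over gene span and signal removed, the differences were 0.51 for Runx1 and -0.29 for Runx3, and that of Runx3 passed (adjusted p = 0.0448). A signal averaged over a whole gene includes probes outside the deleted part and checks no deletion, so DKO and WT mean the samples so labelled, and each direction is that of the labels. Kit, the sorted receptor, had mean signals of 10.49 in DKO and 9.75 in WT, a rise of 0.73 (limma adjusted p = 0.00289). Ly6a, the gene of Sca1, was not among the genes measured. Of 7 measured genes of the sorted and sub-dividing surface proteins, 4 rose and 2 fell. Beside Kit, Slamf1, Cd48 and Ptprc rose (1.95, 1.46 and 0.76), Flt3 and Thy1 fell (-1.32 and -1.09), and Cd34 did not pass (0.02). Whether the sorted cells of the 2 groups were alike in composition was not tested. The 10 measured markers of B and T cells, which the sort removes, gave 0 rises and 0 falls, with list means of 4.95 to 5.03 in DKO and 4.95 to 5.08 in WT, close to the lower quartile of all genes on each array (4.89 to 4.97). Their signals were uneven, and 4 of the 10 lay below that quartile on every array. Cd79b averaged 7.13 in DKO and 7.06 in WT, and Cd3e 6.18 and 6.12.

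Cd44, Cd47 and Cd9 were higher in the DKO samples, and the other 6 genes did not pass the test. The rises were 2.17-fold for Cd44, 1.68-fold for Cd47 and 1.56-fold for Cd9, where the rise of Cd47 was seen in only 1 of its 2 probe sets. Passing means a Benjamini-Hochberg adjusted p under 0.05 over all 19938 genes in limma, which estimates each gene's error with help from all genes. Of the 9 genes 3 rose and 0 fell, beside 9.71% rising, 7.69% falling and 17.4% changing either way among all genes, and 5 of the 9 had an unadjusted p under 0.05, beside 30.9% of all genes. Over all genes this came to 1936 rises and 1533 falls, and to 2254 and 1121 with the arrays centred on their medians. The groups were fully separate for 5 of the 9, beside 35.8% of all genes, with DKO higher for 4 of them (16.2% of all genes) and lower for 1 (19.6%). The median difference of the 9 was 0.17, against -0.04 over all genes. Rises were more frequent at strong signal: they made up 24.8% of the 25% of genes with the strongest mean signal, which holds Selplg, Cd44, Cd47 and Pecam1, and 10.2% of the next 25%, which holds Cd9, Icam1 and Podxl. Robo4 and Vcam1 lie in the weaker bands of the same width, where 2.79% and 1.1% of genes rose.

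**Figure D1:**
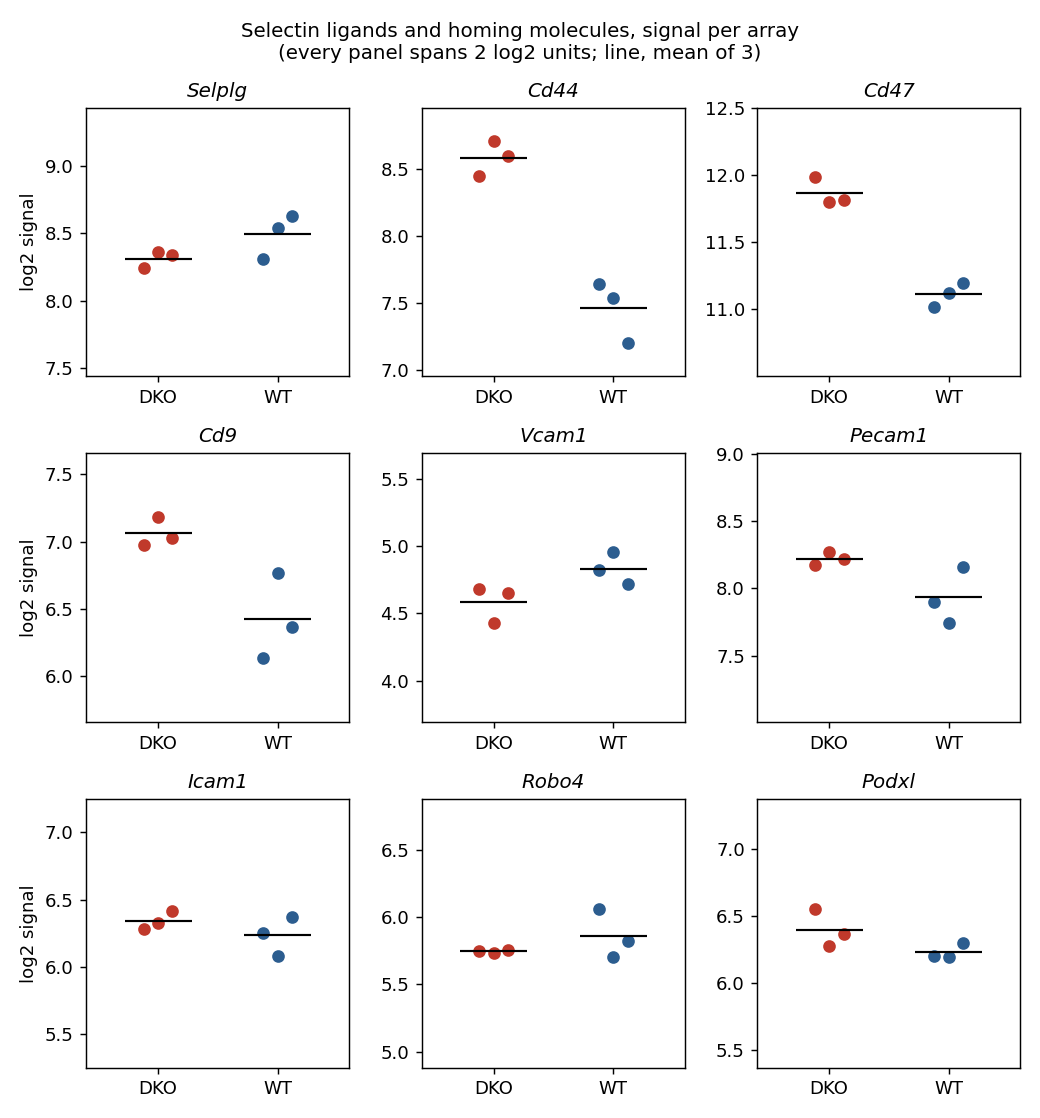
Log2 signal of the 9 genes on each array, with DKO (red) left of WT (blue) and a line at the mean of 3 samples; each panel spans 2 log2 units. The DKO points of Cd44, Cd47 and Cd9 lie clear of the WT points, by 0.80, 0.60 and 0.21 between the nearest samples, whereas those of Vcam1 and Pecam1 part by only 0.04 and 0.02 and the other 4 genes overlap.

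Among the proteins that selectins bind, Cd44 rose and Selplg and Podxl did not pass. Cd44, a hyaluronan receptor whose fucosylated form binds E-selectin, had signals of 8.45, 8.71 and 8.59 in the DKO samples, against 7.65, 7.54 and 7.20 in the WT samples. All DKO samples lay above all WT samples, and WT replicate 3 was the lowest. The difference was 1.12 (SE 0.126, adjusted p = 0.000516), and only 1.21% of all genes differed by more in either direction. The difference was between 0.92 and 1.21 under 19 alternative settings, and it passed in each.

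Selplg encodes PSGL-1, the main P-selectin ligand of leukocytes. Its signals were 8.24, 8.36 and 8.34 in DKO, against 8.31, 8.54 and 8.63 in WT. The groups overlapped through WT replicate 1, and the DKO samples were closer together than the WT samples. The difference of -0.18 (95% interval -0.41 to 0.05, adjusted p = 0.272) did not pass, and it was -0.33 with the arrays quantile normalised (adjusted p = 0.0594) and -0.31 with cyclic loess (0.0752). The interval excludes a rise of the size seen for Cd44. Podxl, podocalyxin, gave 6.55, 6.28 and 6.36 in DKO, against 6.20, 6.19 and 6.30 in WT. Here DKO replicate 2 lay below WT replicate 3, so the groups overlapped, and the difference of 0.17 (-0.05 to 0.39, adjusted p = 0.285) did not pass.

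Cd47 had 2 probe sets, and they differed in outcome. Probe set 10436196, the brighter one and the one chosen, gave 11.98, 11.80 and 11.81 in DKO, against 11.02, 11.12 and 11.20 in WT. All DKO samples were above all WT samples, with a difference of 0.75 (SE 0.094, adjusted p = 0.000856). Probe set 10436182 gave 10.27, 10.09 and 10.22 in DKO, against 10.17, 10.20 and 10.07 in WT. There the groups overlapped, with a difference of 0.05 (SE 0.0872, adjusted p = 0.764 over all 21789 probe sets with 1 symbol). The platform annotation ties the second probe set to a RefSeq mRNA of Cd47 and the first to a cDNA clone, with 0 RefSeq mRNAs. Within an array the first exceeded the second by 1.67 ± 0.07 in DKO and by 0.97 ± 0.14 in WT (SD, n = 3). The change in this gap was 0.71, with no overlap between groups (two-sided exact permutation p = 0.1, the smallest that 3 samples against 3 allow). Which of the probe sets stands for the transcript that makes the protein was not tested. The difference was 0.40 with the probe sets averaged (adjusted p = 0.0121), and 0.45 (0.0113) after removal of a trend over gene span and signal. Cd47 should be read as a rise in 1 of 2 probe sets, and with the annotated mRNA preferred 2 of the 9 genes rose.

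**Figure D2:**
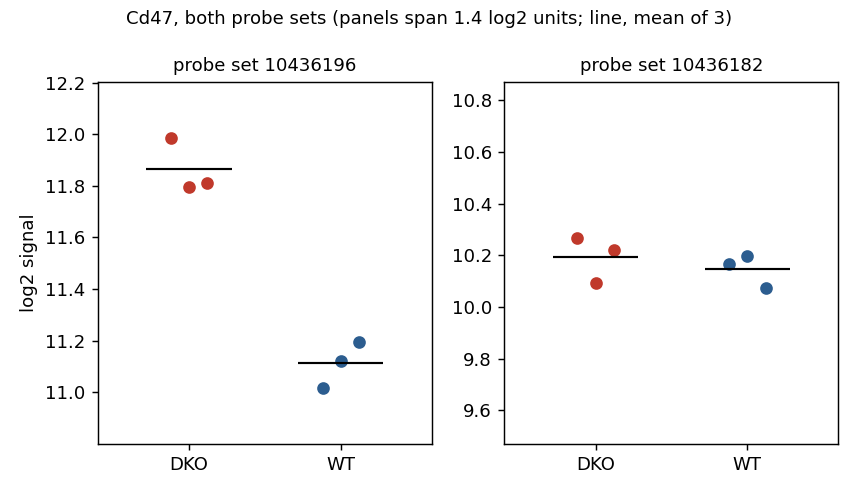
Log2 signal of the 2 probe sets of Cd47 on each array, DKO (red) left of WT (blue), with lines at the means; both panels span 1.4 log2 units. In probe set 10436196 the DKO samples lie 0.60 or more above the WT samples, and in probe set 10436182 the groups overlap.

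Cd9 encodes a tetraspanin that is abundant on platelets and megakaryocytes and also present on stem cells. Its signals were 6.97, 7.18 and 7.03 in DKO, against 6.14, 6.77 and 6.37 in WT. The DKO samples were all higher, but WT replicate 2 came within 0.21 of them and the WT samples were more spread (SD 0.11 in DKO and 0.32 in WT, n = 3 each). The difference was 0.64 (SE 0.149, adjusted p = 0.0172). The call was lost without DKO replicate 2 (0.58, adjusted p = 0.0657), DKO replicate 3 (0.65, 0.0543) or WT replicate 3 (0.61, 0.0552), and the difference was 0.49 without WT replicate 1 and 0.81 without WT replicate 2. Beside it, 5 of 9 measured megakaryocyte and platelet markers rose and 0 fell, with list means of 6.98 to 7.64 in DKO and 6.62 to 6.71 in WT. Gp5, of the platelet von Willebrand factor receptor, rose 6.99-fold (means 8.85 in DKO and 6.05 in WT, adjusted p = 1.74e-05), Treml1 rose 2.83-fold (0.000302), and Itga2b, Itgb3 and Gp9 rose by 0.91, 0.39 and 0.39. The call of Gp9 (0.0167) was lost without DKO replicate 1 (0.0633) or 2 (0.0638), and that of Itgb3 is described with the partners of Cd47. The other 4 did not pass, at 1.28 for Clec1b, -0.12 for Vwf, -0.44 for Ppbp and -0.51 for Pf4, although Clec1b passed without DKO replicate 3 (1.84, 0.00325) and Ppbp without DKO replicate 2 (-0.89, 0.0323). The part of such cells in the signal of Cd9 was not tested, and a change in cell composition and a change in RNA per cell cannot be told apart in these bulk samples.

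The promoters of the genes that rose are shown because RUNX factors bind DNA directly. The RefSeq table of GRCm38.p6 held promoters for 5 of the 9 genes (Cd44, Cd47, Cd9, Icam1 and Robo4), 6 in all, each from 250 bases before to 50 bases after a start site. Capitals mark the ETS hexamers CAGGAA and CCGGAA or their reverse complements, which are forms of the sites of the ETS family that often partners RUNX proteins. Other forms built on the shorter core GGAA were not searched and are not marked, so further ETS sites may be present. The sequences run in the direction of the gene, from the minus strand of chr2:102901616-102901915 for Cd44, the plus strand of chr16:49855404-49855703 for the first of 2 starts of Cd47, and the minus strand of chr6:125494711-125495010 for Cd9.
Cd44: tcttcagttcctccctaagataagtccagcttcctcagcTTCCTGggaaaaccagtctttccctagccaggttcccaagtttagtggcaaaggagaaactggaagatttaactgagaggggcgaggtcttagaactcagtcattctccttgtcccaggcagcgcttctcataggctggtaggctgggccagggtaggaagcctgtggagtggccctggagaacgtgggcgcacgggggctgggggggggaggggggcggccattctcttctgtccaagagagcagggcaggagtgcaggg
Cd47: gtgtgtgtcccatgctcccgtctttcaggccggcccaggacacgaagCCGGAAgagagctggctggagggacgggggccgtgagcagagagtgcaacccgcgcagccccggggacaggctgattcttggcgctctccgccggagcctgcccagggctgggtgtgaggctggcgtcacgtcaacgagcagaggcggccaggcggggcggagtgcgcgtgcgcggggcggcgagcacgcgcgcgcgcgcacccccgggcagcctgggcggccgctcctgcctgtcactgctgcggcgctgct
Cd9: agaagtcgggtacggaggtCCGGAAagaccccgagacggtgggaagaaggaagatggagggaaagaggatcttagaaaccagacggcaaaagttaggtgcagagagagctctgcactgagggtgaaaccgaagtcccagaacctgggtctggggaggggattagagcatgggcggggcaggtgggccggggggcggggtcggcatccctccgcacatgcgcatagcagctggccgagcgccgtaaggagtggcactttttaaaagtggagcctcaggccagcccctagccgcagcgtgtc
The RUNX hexamers TGTGGT and TGCGGT were searched on both strands and were in 0 of the 6 promoters. They were in 22.4% of all 32851 promoters and in promoters of 25% of all genes in the table. The ETS hexamers were in all 6 promoters and so in 5 of 5 genes, beside 41.4% of all promoters and 44.7% of all genes in the table. The 2 promoters of Cd47 start 7 bases apart and share the same match, so they are not separate observations. Within a promoter no matches overlapped. The match began 211 bases before the start in Cd44, 203 in Cd47 and 231 in Cd9. Icam1 and Robo4, which did not pass, also held such matches. Every gene with a promoter here held an ETS match and none a RUNX match, so the letters could not separate the genes that rose. No promoter was held for Selplg, Vcam1, Pecam1 and Podxl, and binding was not tested.

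The immunoglobulin adhesion genes did not pass. Vcam1, the ligand of the integrin made of Itga4 and Itgb1, gave 4.68, 4.43 and 4.65 in DKO, against 4.83, 4.95 and 4.72 in WT. The DKO samples were all lower, by a gap of 0.04 between the nearest samples, and the difference was -0.24 (-0.48 to -0.01, adjusted p = 0.144). All these signals lay near or below the lower quartile of the arrays, so the size is uncertain. Icam1, the ligand of the integrin of Itgal and Itgb2, gave 6.28, 6.33 and 6.42 in DKO, against 6.25, 6.08 and 6.37 in WT. These overlapped, with a difference of 0.11 (-0.12 to 0.33, adjusted p = 0.517).

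Pecam1, an adhesion protein of endothelium, platelets and leukocytes, gave 8.17, 8.27 and 8.22 in DKO, against 7.90, 7.74 and 8.16 in WT. The DKO samples were all higher, although WT replicate 3 came within 0.02 of the lowest of them. The difference of 0.29 (0.04 to 0.54, adjusted p = 0.115) did not pass. With WT replicate 3 left out it passed (0.40, adjusted p = 0.0324), and it was 0.17 with quantile normalisation and 0.11 with the trend over gene span and signal removed. Robo4, a receptor of endothelium and stem cells, gave 5.75, 5.73 and 5.76 in DKO, against 6.06, 5.70 and 5.82 in WT. The DKO samples were nearly equal and lay within the WT range, and the difference was -0.11 (-0.35 to 0.12, adjusted p = 0.501).

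Vcam1, Pecam1, Icam1, Robo4 and Podxl are also expressed by endothelial cells. Of 16 measured endothelial markers 1 rose and 0 fell, with list means of 5.90 to 5.96 in DKO and 5.78 to 5.92 in WT. Tek, an angiopoietin receptor of endothelium that stem cells also carry, was the rise, at 3.11-fold (means 7.78 in DKO and 6.14 in WT, adjusted p = 4.67e-05). Signals of the others were uneven: Cdh5 and Kdr averaged 5.04 and 5.07 in DKO, against 4.96 and 5.01 in WT, near the lower quartile of the arrays, whereas Egfl7 and Tie1 averaged 7.91 and 7.25 in DKO, against 7.96 and 7.34 in WT. Emcn averaged 7.23 in DKO and 6.71 in WT, and it passed only without WT replicate 1 (adjusted p = 0.0296). Of 12 stromal markers 0 rose and 1 fell, and of 13 macrophage markers 1 rose and 2 fell. The part of such cells in these signals was not tested. Across the 9 genes, the SD among DKO samples was below that among WT samples for 6, and over all genes the median SD was 0.0985 in DKO and 0.125 in WT.

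**Figure D3:**
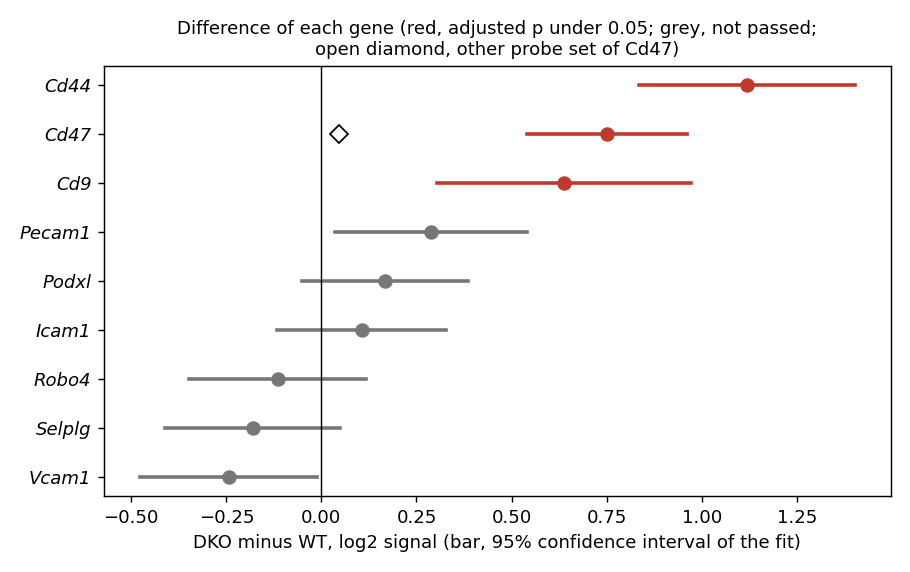
DKO minus WT difference in log2 signal for the 9 genes in order of size, with 95% intervals of the limma fit; red genes passed the test and grey genes did not. Cd44 at 1.12, Cd47 at 0.75 and Cd9 at 0.64 stand to the right, and the open diamond at 0.05 is the other probe set of Cd47.

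The partners of these proteins were described from 9 lists that together held 124 measured genes beside the 9. Of these, 27 rose (21.8%), 9 fell (7.26%) and 88 did not pass, beside 9.71% rising and 7.69% falling among all genes and 24.8% rising in the brightest 25%. In the weaker bands of the same width 10.2%, 2.79% and 1.1% rose. The partner genes include bright and dim ones, and their share was not compared at like signal. Their median difference was 0.06, against -0.04 for all genes.

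Enzymes that build selectin-binding sugars moved in both directions. Of 23 such genes 6 rose, 2 fell and 15 did not pass, with a median of 0.09. St3gal6 and St3gal4, sialyltransferases that cap the sugars of selectin ligands, rose by 1.25 and 0.47 (adjusted p = 0.00579 and 0.0057). St3gal6 gave 7.60, 7.05 and 7.24 in DKO, against 6.63, 5.71 and 5.80 in WT, where WT replicate 1 stood above the other WT samples. B3gnt5, which starts the sugar chains of lacto-series glycolipids, fell by 1.93 (adjusted p = 2.11e-05), and the galactosyltransferase gene B4galt4 fell by 0.80 (adjusted p = 0.000458). B3gnt5 gave 4.86, 5.24 and 4.92 in DKO, against 6.94, 7.05 and 6.82 in WT, so that the groups lay far apart. The DKO signals were near the lower quartile of the arrays, so the size of the fall is uncertain.

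The other rises among the enzymes were less steady. The core 2 branching enzyme gene Gcnt1 differed by 0.56 (adjusted p = 0.0255), and its call was lost without DKO replicate 2 or 3 or WT replicate 2 or 3 (0.068 to 0.0984). B4galt1 differed by 0.44 (0.0335), and it lost its call without any 1 DKO replicate or WT replicate 1 or 2 (0.0657 to 0.114) and with quantile normalisation (0.112), cyclic loess (0.0973) or the trend removed (0.159). Tpst2, a tyrosine sulphotransferase, differed by 0.31 (0.0283), a call lost without any 1 DKO replicate or WT replicate 1 or 3 (0.055 to 0.0958). The CMP-sialic acid transporter gene Slc35a1 differed by 0.65 (0.0125) and missed the threshold without DKO replicate 3 (0.0552). Gcnt1 also missed it with the trend removed (0.072). Fut7, the fucosyltransferase that completes the selectin-binding sugar in leukocytes, differed by -0.02 (adjusted p = 0.899) and was at 0.02 with quantile normalisation.

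Among the selectins and other selectin ligands, 2 of 12 measured genes rose, 1 fell and 9 did not pass, with a median of 0.08. Sele, the E-selectin gene, which is known from activated endothelium, gave 7.96, 7.56 and 7.87 in DKO, against 7.06, 6.68 and 7.14 in WT. All DKO samples were above all WT samples, and it rose by 0.84 (adjusted p = 0.00412). The endothelial markers, of which Tek rose, are given above, and the part of endothelial cells in the signal of Sele was not tested. Cd24a, a P-selectin ligand of leukocytes, fell by 0.67 (adjusted p = 0.00287), with a mean of 10.40 in DKO and 11.07 in WT. Glg1, which encodes the E-selectin ligand ESL-1, rose by 0.46 (adjusted p = 0.0177), a call lost without DKO replicate 2 (0.053), DKO replicate 3 (0.0743) or WT replicate 3 (0.06), and with the trend removed (0.161, at 0.25).

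Genes related to Cd44 mostly did not pass. The list held its ligands and linkers, and also hyaluronan enzymes, other hyaluronan receptors and proteases. Of 14 measured genes 1 rose, 1 fell and 12 did not pass, with a median of -0.01. Adam10, a protease that cuts Cd44 from the surface, rose by 0.86 (9.02 ± 0.10 in DKO and 8.16 ± 0.11 in WT, SD, n = 3 each, adjusted p = 0.000493). Ezr, which encodes ezrin and links the tails of Cd44 and podocalyxin to actin, fell by 0.72 (7.51 ± 0.19 in DKO and 8.23 ± 0.27 in WT, adjusted p = 0.0089). Among 9 genes of the podocalyxin and Cd34 family and its adaptors 1 rose and 2 fell, with a median of -0.07. Ezr was 1 of these falls, and the other was Slc9a3r1, a scaffold that joins podocalyxin to ezrin, which fell by 0.57 (7.68 ± 0.11 in DKO and 8.25 ± 0.11 in WT, adjusted p = 0.00411). Its relative Slc9a3r2 was at -0.27 (adjusted p = 0.0792), which passed when WT replicate 2 was left out (0.0441). Clic4 rose by 0.50 (adjusted p = 0.0225), a call lost without DKO replicate 1 (0.0888) or 3 (0.0923) or WT replicate 3 (0.0724), with quantile normalisation (0.102, at 0.32), with cyclic loess (0.0678) and with the trend removed (0.175, at 0.28).

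Of 12 measured genes for partners of Cd47 and for enzymes of its pathway, 5 rose and 0 fell, with a median of 0.06. Thbs1, the secreted ligand thrombospondin-1, rose by 0.80 (6.68 ± 0.15 in DKO and 5.88 ± 0.09 in WT, SD, n = 3 each, adjusted p = 0.000929). Itga2b and Itgb3, which form the platelet fibrinogen receptor, rose by 0.91 (adjusted p = 0.000557) and 0.39 (0.0241), and Itgav rose by 0.42 (0.00772). Itga2b and Itgb3 are also among the 5 platelet markers that rose, so these counts are not independent. The call of Itgb3 was lost without DKO replicate 1 (0.0895) or 2 (0.0866) or WT replicate 2 (0.0633), and with the trend removed (0.0504), and that of Itgav with the trend removed (0.0564, at 0.27). Sirpa, the phagocyte receptor for Cd47, differed by 0.41 (adjusted p = 0.0302), and the call was lost without any 1 DKO replicate or WT replicate 2 or 3 (0.0526 to 0.115), with quantile normalisation (0.0919), with cyclic loess (0.0768) and with the trend removed (0.154, at 0.26).

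Of 20 measured tetraspanins other than Cd9, 2 rose, 3 fell and 15 did not pass, and the list with 3 partner genes added had a median of 0.01 over 23 genes. Cd53, a tetraspanin of blood cells, rose 2.55-fold (10.89, 10.60 and 10.97 in DKO, against 9.28, 9.64 and 9.49 in WT, adjusted p = 0.000208), and Tspan32 rose by 0.56 (adjusted p = 0.0064). Tspan8 fell by 1.12 (adjusted p = 0.00972) from signals in the weaker part of the arrays (4.48 ± 0.28 in DKO and 5.61 ± 0.51 in WT), so its size is uncertain. Tspan4 fell by 0.49 (adjusted p = 0.00398) and Cd82 by 0.51 (0.0113), where Cd82 missed the threshold without DKO replicate 3 (0.0529). The binding partners of Cd9 did not pass: Igsf8 differed by -0.09 (adjusted p = 0.605) and Ptgfrn by -0.09 (0.718), which was at 0.06 without DKO replicate 2.

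Of 8 integrin chains that form receptors of Vcam1 or Icam1, 4 rose and 0 fell. The list also held 3 relatives of Icam1, which are integrin ligands, and of its 11 genes 5 rose and 0 fell, with a median of 0.36. Itga4 and Itgb1, which pair to bind Vcam1, rose by 1.05 and 0.58 (adjusted p = 9.21e-05 and 0.0042), and Itga9, a further Vcam1 receptor chain, rose 2.93-fold (7.55, 7.80 and 7.44 in DKO, against 5.93, 6.25 and 5.96 in WT, adjusted p = 8.73e-05). Itgb2, the shared chain of the Icam1 receptors, rose by 1.53 (adjusted p = 0.000732). Its partner chains Itgal and Itgam differed by 0.38 (adjusted p = 0.0863) and 0.36 (0.139), and Itgam was at -0.15 in a probe set shared with another gene symbol. Of the relatives, Icam2 differed by 0.32 (0.0358), a call lost without any 1 DKO replicate or WT replicate 1 or 3 (0.057 to 0.126), with quantile normalisation (0.0668) and with cyclic loess (0.0509).

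Among relatives and junction partners of Pecam1, 3 of 11 genes rose and 0 fell, with a median of 0.08. Jam3, a junctional adhesion molecule, rose by 2.45 (adjusted p = 1.21e-05), the largest rise in the 9 lists. It gave 7.59, 7.51 and 7.71 in DKO, against 4.91, 5.42 and 5.13 in WT. The WT signals were near the lower quartile of the arrays, so the size of the rise is uncertain. Cd99l2, a relative of the leukocyte passage protein CD99, rose by 0.66 (7.05 ± 0.11 in DKO and 6.39 ± 0.04 in WT, SD, n = 3 each, adjusted p = 0.00135). Pvr rose by 0.40 (adjusted p = 0.0175), a call lost without DKO replicate 2 (0.0656) or 3 (0.0589) or WT replicate 3 (0.0547). Cd177, a Pecam1 ligand in neutrophils, differed by -0.21 (adjusted p = 0.207).

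A list of 14 genes held Slit, Robo and effector genes and also Cxcl12 and its receptor Cxcr4. Of the 14, 2 rose, 1 fell and 11 did not pass, with a median of -0.09, and the fall was that of Cxcr4. Srgap2, a GTPase-activating protein that binds Robo receptors, rose by 0.74 (8.29 ± 0.02 in DKO and 7.56 ± 0.05 in WT, SD, n = 3 each, adjusted p = 0.000464), and the actin regulator gene Enah rose 2.45-fold (adjusted p = 0.00168). The ligand Slit2 differed by 0.51 (adjusted p = 0.0679) and passed with quantile normalisation (0.0428), median centring (0.0453) or cyclic loess (0.0378) and without WT replicate 3 (0.0301). Unc5b, an endothelial binding partner of Robo4, differed by -0.16 (adjusted p = 0.285). Cxcr4, the homing receptor for Cxcl12, fell by 0.38 (adjusted p = 0.0185), a call lost without DKO replicate 1 (0.0679) or 3 (0.0717).

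**Figure D4:**
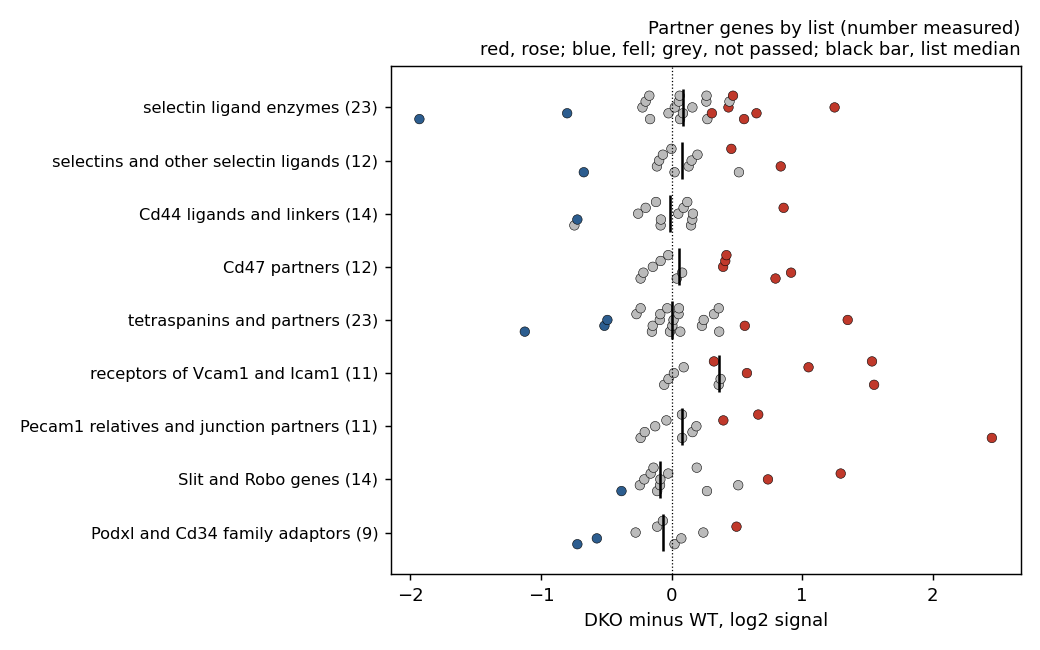
DKO minus WT difference in log2 signal of each measured partner gene (points) in 9 lists, with the number measured in brackets and a black bar at the list median; red genes rose, blue genes fell and grey genes did not pass. Most points lie near 0, Jam3 at 2.45 and B3gnt5 at -1.93 are the extremes, and the list of Vcam1 and Icam1 receptors, which includes 3 relatives of Icam1, has the highest median, 0.36.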

How the data were processed

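The authors' deposited values were log2 signals, 1 per probe set and array, and the sample titles name RMA at the gene level, a method that corrects background, equalises arrays by quantiles and summarises probes. The series' design text names a preliminary MAS 5.0 normalisation, but the deposited values ran from 1.25 to 13.7 with similar quartiles on all arrays, as log2 RMA values do. Per the submitters' processing notes, the software was Affymetrix Expression Console 1.0. No source used here gives the genome build, and positions are stated for the RefSeq promoters alone.

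Of 35556 probe sets, 21789 had 1 gene symbol, 1621 several and 12146 none in the platform annotation. The probe set with the highest mean per gene left 19938 genes, with no filter on dim signals. DKO minus WT was fitted with limma 3.58.1 in R 4.3.3 (lmFit, eBayes, two-sided), with Benjamini-Hochberg adjustment over all genes and a threshold of 0.05. Standard errors had 5.52 prior and 4 residual degrees of freedom. The script was tested on simulated data. The number of arrays limits the precision. The labels do not say whether replicate numbers pair the samples, and the main fit used no pairing. Deviations of same-numbered samples from their group means correlated at -0.01, -0.10 and -0.04 over all genes, which cannot decide whether they were paired.

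The genes, the lists and the tests were chosen with earlier results of these data known. Named partners are, per list, up to 4 genes past the threshold with the smallest p, and direct receptors or ligands of the 9 genes. Gcnt1, B4galt1, Tpst2, Slc35a1, Cd82, Icam2, Fut7, Runx1, Runx3 and Kit fall outside that rule and were picked with their values in view. The same holds for the other sorted and sub-dividing surface proteins and the markers of other cell types. The alternatives tried were leaving out each replicate, removal of a trend over gene span and signal, other thresholds, the replicate block, array weights, trend and robust options of limma, other rules for the probe set of a gene, removal of the dimmest genes, and cyclic loess, median centring or quantile normalisation. Gene spans and promoters came from RefSeq tables of GRCm38.p6, which held 19856 of the genes by Entrez number. Of the marker lists not described with a result, 0 of 9 erythroid genes rose and 2 fell, and 0 of 12 granulocyte genes rose and 3 fell. The erythroid falls were Car1 (-2.02) and Klf1 (-0.54), and the granulocyte falls Elane (-2.30), Prtn3 (-0.60) and Cebpe (-0.34). These were not recomputed under the alternatives, and the part of cell composition in them was not tested.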

Additional observations from a re-analysis of the deposited data

How the results depend on the processing

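Cd44 rose under all 19 alternatives and Cd47 under 18. Apart from the average of its probe sets, these 18 settings read Cd47 from probe set 10436196 alone. They could therefore not test the disagreement between its probe sets. With the probe set annotated to a RefSeq mRNA preferred, a setting chosen after seeing the data, Cd47 was at 0.05 (adjusted p = 0.772) and 2 of the 9 genes rose. The number of the 9 that rose was 2 or 3 under every alternative, and 0 fell under each, while without WT replicate 3 the 3 were Cd44, Cd47 and Pecam1. Selplg, Vcam1, Icam1, Robo4 and Podxl did not pass under any alternative that kept them, and each kept its sign. Vcam1 was removed with the dimmest 25% and 50% of genes and Robo4 with the dimmest 50%. Robo4 lay between -0.19 and -0.02 and Icam1 between 0.03 and 0.17. Over all genes, leaving out 1 sample gave 1250 to 1868 rises and 843 to 1388 falls, with 1250 rises without DKO replicate 3 and 843, 876 and 854 falls without DKO replicates 1, 2 and 3. A threshold of 0.01 gave 1058 rises and 588 falls.

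With the replicate block, Cd9 stayed past the threshold (adjusted p = 0.00631), 1772 genes rose and 1272 fell, the calls of Sirpa (0.0534), Tpst2 (0.0664) and Icam2 (0.0569) were lost, Itgal (0.033) and Clec1b (0.00507) passed, and no other call changed among the genes recomputed (the 9, the named partners and 15 named markers and Runx genes). In the labels, same-numbered samples share only that number. Signs turned for Fut7 with quantile normalisation (0.0203), median centring (0.0223), cyclic loess (0.0354) and the trend removed (0.0486), and when single replicates were left out it ranged from -0.0903 to 0.0247, above 0 without DKO replicate 3 or WT replicate 2. Ptgfrn likewise ranged from -0.221 to 0.062, above 0 only without DKO replicate 2. Without single replicates Cdh5 ranged from -0.0123 to 0.202, Kdr from -0.0200 to 0.128 and Egfl7 from -0.0956 to 0.0179. The sign also turned for Itgam with probe sets of several symbols kept (-0.15). None of these passed, and the cause was not tested. Signals near the lower quartile limit what can be said of Vcam1.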
